A study of Homo sapiens with 6 samples.

Results

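MRC5 cells that received luteolin together with TGF-β1 were compared with control cells at the level of poly(A)-selected mRNA. The genes described are those with at least 1 CPM (counts scaled to library size, as described under the processing) in either of the 2 libraries, 13859 of the 60623 gene IDs in the table. MRC5 is a line of human fetal lung fibroblasts that is not transformed and has a limited lifespan in culture. All cells were wild type and were collected at 48 h. The cells of interest received luteolin plus TGF-β1, another group received TGF-β1 alone, and the control cells received the solvent DMSO. The sources used here state neither doses nor whether luteolin was given before or with the cytokine. A library of luteolin alone is not among those analysed here, so the share of each agent in a difference cannot be told apart.

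TGF-β1 is the cytokine that turns fibroblasts into myofibroblasts, cells that lay down collagen and contract through smooth muscle actin. It acts through a receptor kinase pair that phosphorylates SMAD2 and SMAD3, which enter the nucleus with SMAD4, and through actin-dependent release of MRTF cofactors that work with the factor SRF. Luteolin is a plant flavone that has been described as an inhibitor of several kinases and as an antioxidant. Setting cells with both agents against DMSO-treated cells asks how far they stand from the control state, a contrast that contains both agents at once.

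The luteolin + TGF-β1 library held 15563805 counts, the TGF-β1 library 14609132 and the control library 17876657, and their 10 most abundant genes took 13.4%, 11.6% and 8.09% of the counts. Each group was sequenced once, so nothing here is checked by a replicate: a ratio compares 2 libraries, and its exact 95% interval covers counting error only. Calls of higher or lower need a difference of 2-fold or more and an interval that leaves out equality. A lone number in parentheses after a gene is its log2 ratio of luteolin + TGF-β1 over control, and list medians are on the same scale. All 9 fibroblast markers were measured, and 4 were higher and 1 lower than in control (3 and 2 under total counts). They ranged widely in level, with COL1A1 at 30153, 17225 and 8208 CPM, VIM at 4358, 5445 and 4929 CPM and FAP at 118, 111 and 51.1 CPM in luteolin + TGF-β1, TGF-β1 and control cells, and S100A4 was the lower one (-2.59). Of 6 leukocyte markers 0 reached 1 CPM, of 6 endothelial markers 1 did (TEK), and of 8 epithelial markers 3 did (KRT8, KRT18 and KRT19), with EPCAM, CDH1, PECAM1 and PTPRC below it. At the threshold itself, TMEM176A reached 1.00 CPM in its higher library and was kept, while PRKCZ, at 0.955 CPM, was not.

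More genes lay below control than above it, an order that turned with upper-quartile scaling. In luteolin + TGF-β1 cells 1725 genes (12.4%) were higher and 2368 (17.1%) lower than in control, and 42.1% of the 4093 called genes were higher. The median log2 ratio over all genes was -0.08. This split depends on the scaling: with plain totals 1077 genes were higher and 3528 lower (23.4% higher, all ratios shifted by -0.34 on the log2 scale), and with the upper quartile 2207 were higher and 1974 lower (52.8% higher, shifted by 0.17). The higher genes included abundant ones. They took 34.0% of all counts in luteolin + TGF-β1 cells, 20.5% in TGF-β1 cells and 11.9% in control cells, whereas the lower genes took 2.92%, 8.98% and 12.5%. At 4-fold or more, 592 genes were higher and 1040 lower, and at 10-fold or more 162 were higher and 338 lower. TGF-β1 alone, measured against the same control library, had 497 higher genes (3.70%) and 895 lower genes (6.67%) of 13416. Because both contrasts use that one control library, their values are set side by side below and are not correlated. The contrasts differ in their shares called over all genes, so a gap in list counts need not be particular to a list.

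**Figure D1:**
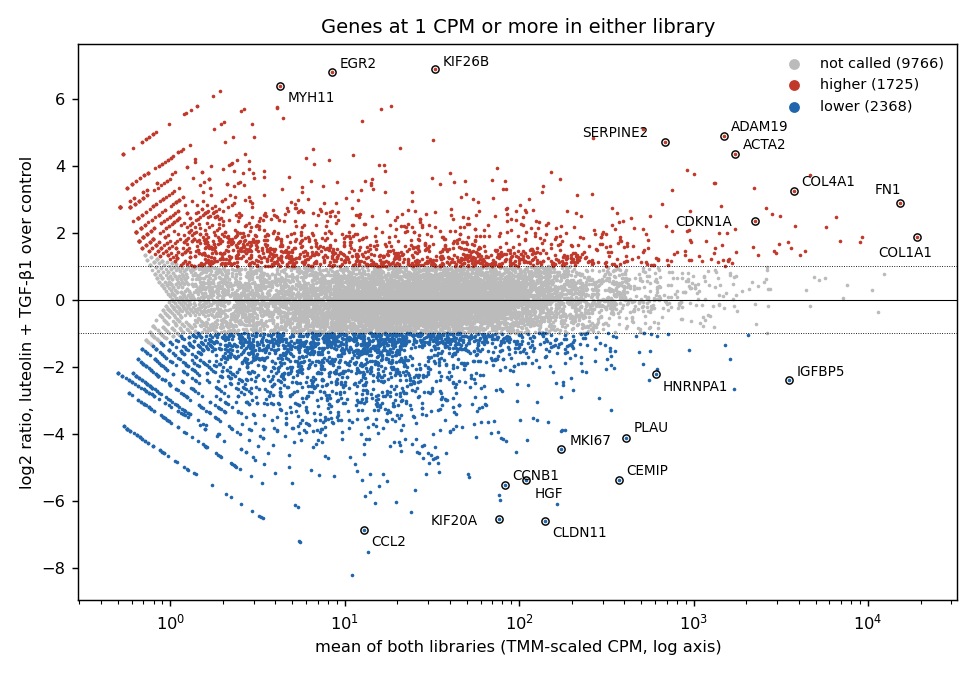
Each point is 1 of the 13859 genes, with the mean of the luteolin + TGF-β1 and control libraries on the x axis (scaled CPM, log axis) and the log2 ratio of luteolin + TGF-β1 over control on the y axis. Red points are the 1725 higher genes, blue points the 2368 lower genes and grey points those not called. Dotted lines mark 2-fold, and a gene with 0 counts in 1 library is drawn at its bound against 3 counts. Matrix and contractile genes such as COL1A1, FN1 and ACTA2 are among the abundant genes above the upper line, and mitotic genes such as KIF20A and CCNB1 lie far below the lower one.

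Cell-division genes lay far below control. All 57 measured genes of the mitosis list were lower, their log2 ratios having a median of -3.99, and 39 of 41 genes of DNA replication were lower, with a median of -2.52. Each of these calls also held under total-count, upper-quartile and relative-log-expression scaling and with the factors taken over the 2 libraries alone. In TGF-β1 cells 0 genes of either list were called in either direction, and the list medians were 0.25 for mitosis and 0.35 for DNA replication. Summed over the replication list, the level was 449 CPM in luteolin + TGF-β1 cells, 3072 CPM in TGF-β1 cells and 2365 CPM in control cells. In bulk RNA, fewer cells in the cycle and less RNA per cycling cell cannot be told apart.

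KIF20A, a kinesin of the central spindle needed to finish cell division, lay at chromosome 5 from 138179112 to 138187723 on GRCh38 and had 22 counts in luteolin + TGF-β1 cells, 2633 in TGF-β1 cells and 3019 in control cells. It was 94.3-fold lower than control (log2 ratio -6.56, interval -7.24 to -5.96). CDC20, the activator of the anaphase-promoting complex, had 36 counts in luteolin + TGF-β1 cells, 3445 in TGF-β1 cells and 3003 in control cells (log2 ratio -5.84, interval -6.36 to -5.37). Cyclin B1, the partner of CDK1 at the entry into mitosis, is encoded by CCNB1 and had 48 counts in luteolin + TGF-β1 cells, 2636 in TGF-β1 cells and 3237 in control cells, and was 46.3-fold lower than control. The luteolin + TGF-β1 library stood apart from the other two for these 3 genes, since TGF-β1 cells had log2 ratios to control of only 0.22, 0.61 and 0.12 for them. The kinases AURKA and NEK2, which act at the centrosome, had log2 ratios of -5.30 and -5.87. CDK1 itself had 66 counts in luteolin + TGF-β1 cells, 953 in TGF-β1 cells and 1496 in control cells (log2 ratio -3.96, interval -4.34 to -3.61), and MKI67, the gene of the proliferation marker Ki-67, had 207 counts in luteolin + TGF-β1 cells, 7188 in TGF-β1 cells and 6605 in control cells (log2 ratio -4.45, interval -4.66 to -4.25). The smallest differences of the list were those of the condensin genes SMC2 (-1.74) and NCAPD2 (-1.91). Other condensin genes of the list lay further below control, with SMC4 at -3.02, NCAPH at -2.97 and NCAPG at -3.90.

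Among replication genes, the helicase subunit MCM7 had 373 counts in luteolin + TGF-β1 cells, 5500 in TGF-β1 cells and 4509 in control cells (log2 ratio -3.05, interval -3.21 to -2.90). RRM2, the cell-cycle-regulated subunit of ribonucleotide reductase, had 295 counts in luteolin + TGF-β1 cells, 4333 in TGF-β1 cells and 5397 in control cells (log2 ratio -3.65, interval -3.83 to -3.48). POLE2, the small subunit of the leading-strand polymerase, had a single count in luteolin + TGF-β1 cells, against 100 in TGF-β1 cells and 134 in control cells, a log2 ratio of -6.52 with an interval from -11.84 to -4.02. PCNA, the sliding clamp that also works in repair, was less far from control at -1.25. The replication genes that stayed short of 2-fold were the ligase gene LIG1 (-0.97) and the clamp-loader gene RFC4 (-0.95), and both passed it under total counts. Homologous recombination and Fanconi repair, which deal with breaks and cross-links mainly in S and G2 phase, had 21 of 25 genes lower and 0 higher, with RAD51AP1 at -3.71, FANCD2 at -3.32 and BRCA1 at -2.25. PALB2 (0.29) and BARD1 (-0.26) did not pass.

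The regulators of these genes did not move as a block. Of 20 E2F, MYB-MuvB and FOXM1 regulators, 12 were lower and 1 was higher, with a median of -1.56. The activator E2F1 (-2.45), MYBL2, which drives G2 and M genes (-3.23), and FOXM1 (-1.79) were all lower. The activator E2F2 had 2 counts in luteolin + TGF-β1 cells, 85 in TGF-β1 cells and 112 in control cells (log2 ratio -5.27, interval -8.33 to -3.38). The atypical member E2F8 had 2 counts in luteolin + TGF-β1 cells, 185 in TGF-β1 cells and 130 in control cells (log2 ratio -5.48, interval -8.54 to -3.60), and both ratios rest on 2 counts in luteolin + TGF-β1 cells. RB1, RBL2 and E2F4, proteins of the repressor complexes of resting cells, lay at -0.25, 0.14 and -0.27 and were not called. LIN37, a MuvB subunit, was higher at 1.03 on only 52 counts in luteolin + TGF-β1 cells and 37 in control cells, and lost that call under total counts.

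The promoters of these genes show the element types by which cell-cycle genes are usually sorted. The cell-cycle genes homology region (CHR), here TTTGAA or TTTAAA, is the site of the MuvB complex in G2 and M genes, and is often found with CCAAT boxes, bound by NF-Y. The E2F motif, here TTGGCGC or TTCCCGC or TTGCCGC or TTCGCGC, is typical of genes of the G1 to S transition. RefSeq promoter windows of 300 bases, from 250 before to 50 after each start on GRCh38.p14, were searched on both strands, and E2F motifs may overlap one another. A gene can have several starts, and each window counts once. For the 4 mitotic genes below, whose capitals mark CHR and CCAAT letters on either strand (ATTGG is CCAAT read from the other strand), the 130 bases run from 110 before the start to 20 after it.
KIF20A, chr5:138179002-138179131, plus strand: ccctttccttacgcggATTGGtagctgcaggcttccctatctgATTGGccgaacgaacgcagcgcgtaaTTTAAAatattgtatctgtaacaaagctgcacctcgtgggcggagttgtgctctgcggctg
CDC20, chr1:43358871-43359000, plus strand: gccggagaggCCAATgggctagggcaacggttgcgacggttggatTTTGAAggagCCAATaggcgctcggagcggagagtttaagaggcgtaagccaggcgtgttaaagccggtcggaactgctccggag
CCNB1, chr5:69167040-69167169, plus strand: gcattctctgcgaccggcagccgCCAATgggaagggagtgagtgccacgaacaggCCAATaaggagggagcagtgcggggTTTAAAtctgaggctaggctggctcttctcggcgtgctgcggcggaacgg
CDCA8, chr1:37692406-37692535, plus strand: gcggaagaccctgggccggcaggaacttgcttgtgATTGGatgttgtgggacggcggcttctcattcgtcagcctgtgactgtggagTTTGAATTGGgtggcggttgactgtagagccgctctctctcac

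Counted from the start, with -1 just before it, the CHR letters began at position -41 in KIF20A, -65 in CDC20, -30 in CCNB1 and -23 in CDCA8, the gene of the chromosomal passenger protein borealin (-4.89). CCAAT boxes stood at -94 and -67 in KIF20A, at -100 and -55 in CDC20 and at -87 and -55 in CCNB1. CHR letters stood in 75.4% of the 65 windows of the mitosis list, against 24.0% of all 35116 windows. Within 50 bases of the start the shares were 60.0% and 7.62%. CCAAT boxes stood in 70.8% of the mitosis windows, against 34.6% of all, and other lists had high shares too: 57.4% of the replication windows, 81.8% of the histone windows and 81.5% of those of the unfolded protein response list. A match is a run of letters and was not tested as a bound site.

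For DNA replication, 3 windows are shown from 80 bases before the start to 20 after it, with the E2F motif in capitals on either strand.
POLE2, chr14:49688195-49688294, minus strand: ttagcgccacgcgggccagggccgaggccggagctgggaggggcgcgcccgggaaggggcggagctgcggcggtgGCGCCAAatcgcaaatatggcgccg
GINS2, chr16:85688935-85689034, minus strand: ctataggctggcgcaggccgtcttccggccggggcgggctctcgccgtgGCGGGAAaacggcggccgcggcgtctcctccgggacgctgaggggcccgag
CDC6, chr17:40287799-40287898, plus strand: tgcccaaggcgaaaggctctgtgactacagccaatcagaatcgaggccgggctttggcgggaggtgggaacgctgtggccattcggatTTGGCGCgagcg

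GINS2 encodes a subunit of the replicative helicase and had a log2 ratio of -3.60, and CDC6, which loads that helicase onto origins, had -3.42. E2F motifs stood in 68.1% of the 47 replication windows and in 74.1% of the 27 windows of the recombination and Fanconi list, against 30.8% for mitosis, 18.9% for all genes that reached 1 CPM and 13.0% of all windows. Genes not called had 19.2%. CHR letters were in 14.9% of the replication windows. Over all lower genes CHR letters stood in 25.0% of windows, against 15.1% for higher genes and 15.4% for genes not called. With the 4 cell-division and regulator lists left out the share among lower genes was 23.9%.

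**Figure D2:**
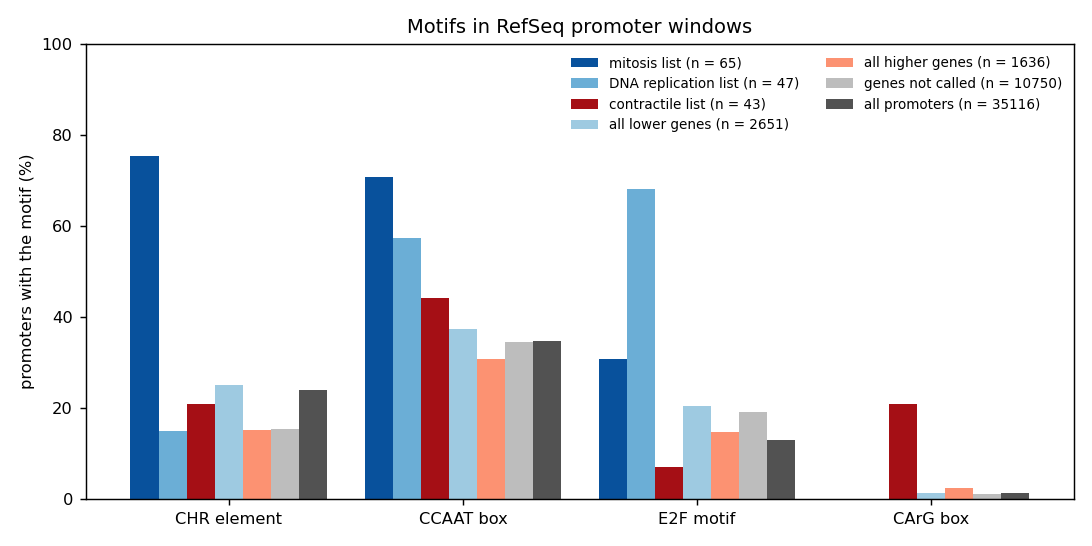
Bars give the percentage of RefSeq promoter windows that hold each motif (y axis, starting at 0), for 3 gene lists, for all lower, higher and uncalled genes and for all 35116 windows of the table, with the number of windows in the legend. Of the 3 lists, CHR letters are most frequent in mitosis (75.4%), E2F motifs in DNA replication (68.1%) and CArG boxes in the contractile list (20.9%), while CCAAT boxes are frequent in both mitosis (70.8%) and DNA replication (57.4%).

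Genes that p53 activates, most of them inhibitors of growth or mediators of stress responses, lay on the higher side: 16 of 29 were higher and 1 was lower, and their log2 ratios had a median of 1.11. In TGF-β1 cells 1 was higher and 1 lower, with a median of -0.30. With plain totals or another scaling the calls that held throughout were 11 higher and 1 lower. CDKN1A, which encodes the CDK inhibitor p21 (chromosome 6 from 36676463 to 36687332), had 51374 counts in luteolin + TGF-β1 cells, 11218 in TGF-β1 cells and 14601 in control cells. That is 3756, 751 and 734 CPM, and 5.12-fold higher than control (log2 ratio 2.36, interval 2.33 to 2.38). TP53INP1, a stress-induced autophagy and cell-death protein, had 2422 counts in luteolin + TGF-β1 cells, 251 in TGF-β1 cells and 498 in control cells (log2 ratio 2.82, interval 2.68 to 2.97), lowest in TGF-β1 cells. The metabolic regulator TIGAR (2.03), the sestrin genes SESN1 (1.65) and SESN2 (1.42), the secreted GDF15 (1.37) and the death receptor gene FAS (1.04) were also higher, FAS not under total counts. MDM2, the ligase that degrades p53, had 2454 counts in luteolin + TGF-β1 cells, 1382 in TGF-β1 cells and 2564 in control cells and was not called (0.48), nor were BAX (-0.23) and GADD45A (0.41). PLK2, a kinase of the list, was lower at -2.01.

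Of the CDK inhibitors, CDKN2B (p15), a classical TGF-β target, had 1028 counts in luteolin + TGF-β1 cells, 417 in TGF-β1 cells and 108 in control cells (log2 ratio 3.79, interval 3.50 to 4.09). CDKN2C (p18) was lower (-2.65), and CDKN2A (-0.37), CDKN1B (-0.33) and CDKN1C (0.54) were not called. CCND1, the gene of cyclin D1, had 2009, 1491 and 1203 CPM in luteolin + TGF-β1, TGF-β1 and control cells, a log2 ratio of 0.74 that was not called. CCND2, another D cyclin gene, was higher (1.18, on 303 and 195 counts in luteolin + TGF-β1 and control cells), though not under total counts. CDK2, in the same list, was lower (-1.09), though not with the upper quartile. Of the 13 genes of this list 3 were higher and 2 lower, beside 12.4% and 17.1% over all genes. Histone genes split in the same libraries. Replication-dependent histone transcripts normally lack a poly(A) tail but can carry one in cells that have left the cycle, and among them were H2AC6 with 966 counts in luteolin + TGF-β1 cells, 61 in TGF-β1 cells and 216 in control cells (2.70) and H2BC5 (3.21), and 7 of 17 measured histone genes were higher. H2AX (-3.12) and H2AZ1 (-1.96) were lower. Histone genes have near-identical copies, so the counting could have moved reads between them. LMNB1, the lamin gene whose loss is a widely used mark of senescent fibroblasts, had 34 counts in luteolin + TGF-β1 cells, 1075 in TGF-β1 cells and 1293 in control cells (log2 ratio -4.71, interval -5.24 to -4.22), and LMNB2 was also lower (-1.66) while LMNA lay at -0.08 and was not called. Of 16 measured genes of the senescence-associated secretome, 10 were higher and 4 lower, and in TGF-β1 cells 3 of 15 were higher and 4 lower. IGFBP3 (3.35), VEGFA (2.60), MMP3 (2.46) and IL6 (2.23, on 155 counts in luteolin + TGF-β1 cells and 48 in control cells) were among the higher ones. The lower ones included CCL2, with 0 counts in luteolin + TGF-β1 cells and 514 in control cells. CXCL1, CXCL2, CXCL3, IL1A and IL1B did not reach 1 CPM, and CXCL8 was lower at -1.02 on 17 and 50 counts, a call lost under 2 scalings.

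**Figure D3:**
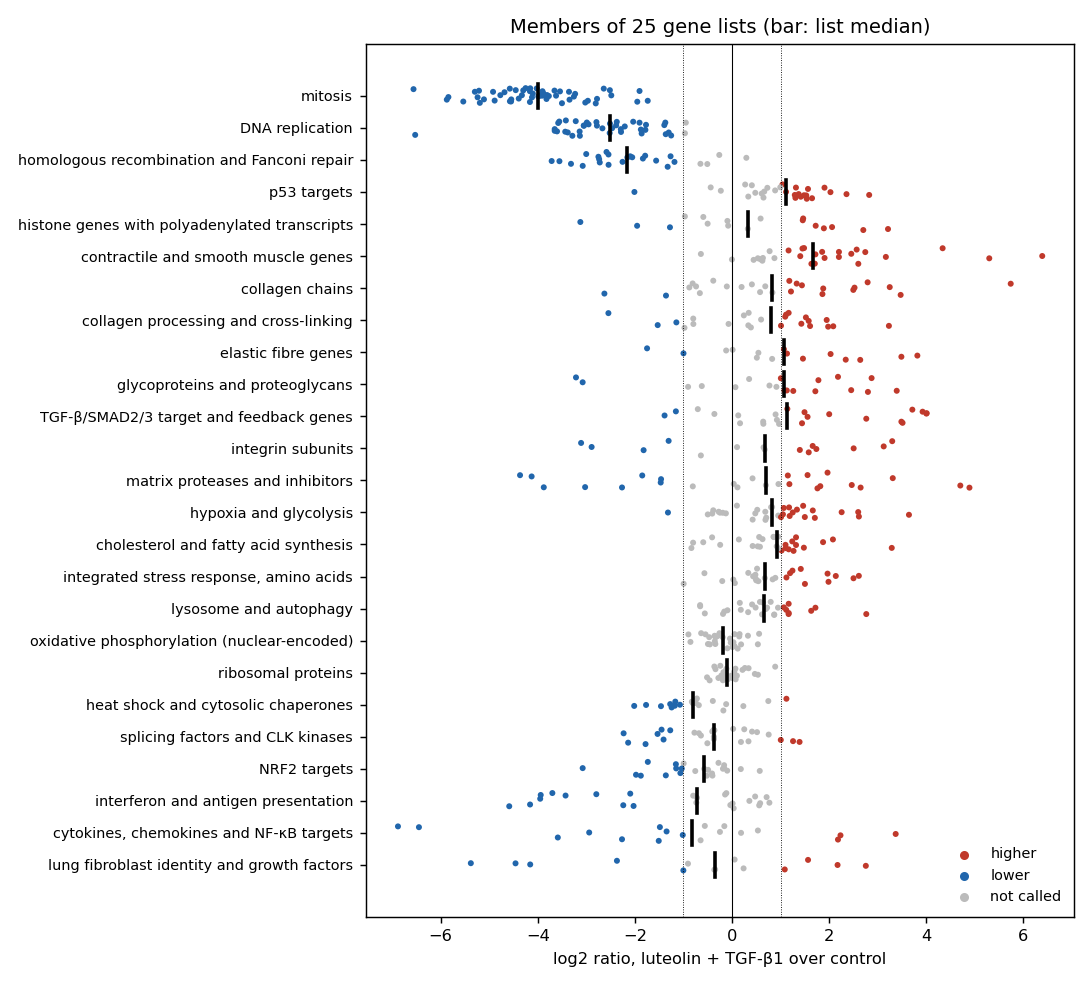
Each point is a measured member of 1 of 25 gene lists (rows), placed by its log2 ratio of luteolin + TGF-β1 over control (x axis), red where higher, blue where lower and grey where not called. Black bars are list medians and dotted lines mark 2-fold. Mitosis lies wholly to the left (median -3.99), contractile genes mostly to the right (median 1.67) and ribosomal proteins around 0 (median -0.10).

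Contractile and smooth muscle genes had the highest median of the 46 lists with a measured member. Of 28 measured members 19 were higher and 0 lower (median 1.67), and 18 of the 19 held under every scaling. TGF-β1 cells had 8 higher and 3 lower, with a median of 0.59. ACTA2, the gene of smooth muscle α-actin and the usual marker of myofibroblasts, had 45165 counts in luteolin + TGF-β1 cells, 7965 in TGF-β1 cells and 3255 in control cells. Its level was 3302, 533 and 164 CPM in the same order, 20.2-fold higher than control (log2 ratio 4.34, interval 4.28 to 4.39), with the TGF-β1 cells in between. MYH11, the smooth muscle myosin heavy chain, had 115 counts in luteolin + TGF-β1 cells, 6 in TGF-β1 cells and 2 in control cells, a log2 ratio of 6.39 with a wide interval from 4.50 to 9.45. TAGLN (SM22), an actin-bundling protein, reached 11099.9, 4213 and 2024 CPM in luteolin + TGF-β1, TGF-β1 and control cells (log2 ratio 2.45, interval 2.44 to 2.47). CALD1 (2.57), TPM1 (2.74), TPM2 (2.20) and CNN1 (1.90), which regulate actin filaments, were all higher.

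Some members followed another order. MYLK, the kinase that starts smooth muscle contraction, had 30144 counts in luteolin + TGF-β1 cells, 4579 in TGF-β1 cells and 14136 in control cells, so that it was 3.10-fold higher than control in luteolin + TGF-β1 cells and lower than control in TGF-β1 cells (log2 ratio -1.21). LMOD1, an actin nucleator of smooth muscle, had 4944 counts in luteolin + TGF-β1 cells, 756 in TGF-β1 cells and 1187 in control cells (log2 ratio 2.60, interval 2.51 to 2.69). ACTC1, the cardiac actin gene, was highest in TGF-β1 cells, with 54 counts in luteolin + TGF-β1 cells, 106 in TGF-β1 cells and 2 in control cells (log2 ratio 5.30, interval 3.37 to 8.38). MYH10, a non-muscle myosin (0.00), VCL (0.44) and SMTN (0.53) were not called, and DES stayed below 1 CPM. Of 14 genes of the SRF, myocardin and MEF2 factors and their LIM-domain partners, 5 were higher and 1 lower (median 0.33). Under total counts 3 were higher and 1 lower, with a median of -0.01. With the upper quartile and with relative log expression 6 were higher. The LIM-domain genes CSRP1 (2.12) and FHL2 (1.42) were higher and MEF2C lower (-3.35, on 5 and 74 counts), while SRF lay at 0.97 and MYOCD at 0.39, neither called. SRF was just short of 2-fold, and the upper-quartile shift of 0.17 takes it past that limit. Of the 6 markers of pericytes and smooth muscle cells, MYH11 was higher, ABCC9 (-2.87) and KCNJ8 (-1.50) were lower and RGS5 (-0.15), CSPG4 (-0.46) and NOTCH3 (0.86) were not called. Their summed level was 367, 313 and 361 CPM in luteolin + TGF-β1, TGF-β1 and control cells, and their part in the contractile result was not tested.

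The CArG box, the site of SRF (a pair of C, 6 letters of A or T, and a pair of G), stood in 20.9% of the 43 windows of the contractile list, against 1.29% of all windows. Of the 9 windows that hold it, each of a different gene, 5 belong to genes called higher and 4 to genes not called. The 7 in which the box lies between 120 bases before the start and 10 after it are shown over that stretch, with the box in capitals, for 4 genes that were higher and then for CNN2, TGFB1I1 and SMTN, which were not called.
ACTC1, chr15:34795540-34795669, minus strand: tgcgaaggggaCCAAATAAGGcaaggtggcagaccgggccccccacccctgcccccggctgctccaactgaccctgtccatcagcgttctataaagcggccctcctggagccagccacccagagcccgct
ACTG2, chr2:73892888-73893017, plus strand: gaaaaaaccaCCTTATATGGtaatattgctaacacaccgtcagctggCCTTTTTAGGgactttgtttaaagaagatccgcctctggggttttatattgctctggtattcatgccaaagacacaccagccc
MYLK, chr3:123620539-123620668, minus strand: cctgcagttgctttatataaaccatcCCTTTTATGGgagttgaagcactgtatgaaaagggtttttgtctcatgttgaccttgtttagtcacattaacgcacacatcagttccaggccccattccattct
FLNA, chrX:154374625-154374754, minus strand: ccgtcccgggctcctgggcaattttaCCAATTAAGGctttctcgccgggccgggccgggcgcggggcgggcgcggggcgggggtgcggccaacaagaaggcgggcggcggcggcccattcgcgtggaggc
CNN2, chr19:1026488-1026617, plus strand: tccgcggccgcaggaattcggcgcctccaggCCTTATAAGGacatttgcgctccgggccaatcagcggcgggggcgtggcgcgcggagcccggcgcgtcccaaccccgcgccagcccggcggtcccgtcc
TGFB1I1, chr16:31473085-31473214, plus strand: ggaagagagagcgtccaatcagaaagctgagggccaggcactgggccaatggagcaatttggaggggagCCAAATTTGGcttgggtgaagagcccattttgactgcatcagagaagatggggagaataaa
SMTN, chr22:31084876-31085005, plus strand: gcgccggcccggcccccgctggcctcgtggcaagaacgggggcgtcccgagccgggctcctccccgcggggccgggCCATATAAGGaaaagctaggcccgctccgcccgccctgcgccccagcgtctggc

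ACTG2, the enteric smooth muscle actin gene, held 2 boxes and had a log2 ratio of 2.20, and FLNA, which cross-links actin, had 1.72 with 13749.7, 6358 and 4185 CPM in luteolin + TGF-β1, TGF-β1 and control cells. CNN2 (0.63), TGFB1I1 (0.77) and SMTN (0.53) lay within 2-fold of control. The other 2 windows with a box, further upstream, belong to ACTN1 (1.16), which was higher but not under total counts, and TPM4 (0.62), which was not called. None of the ACTA2 windows in the table held these exact letters, which says nothing about the factor there.

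**Figure D4:**
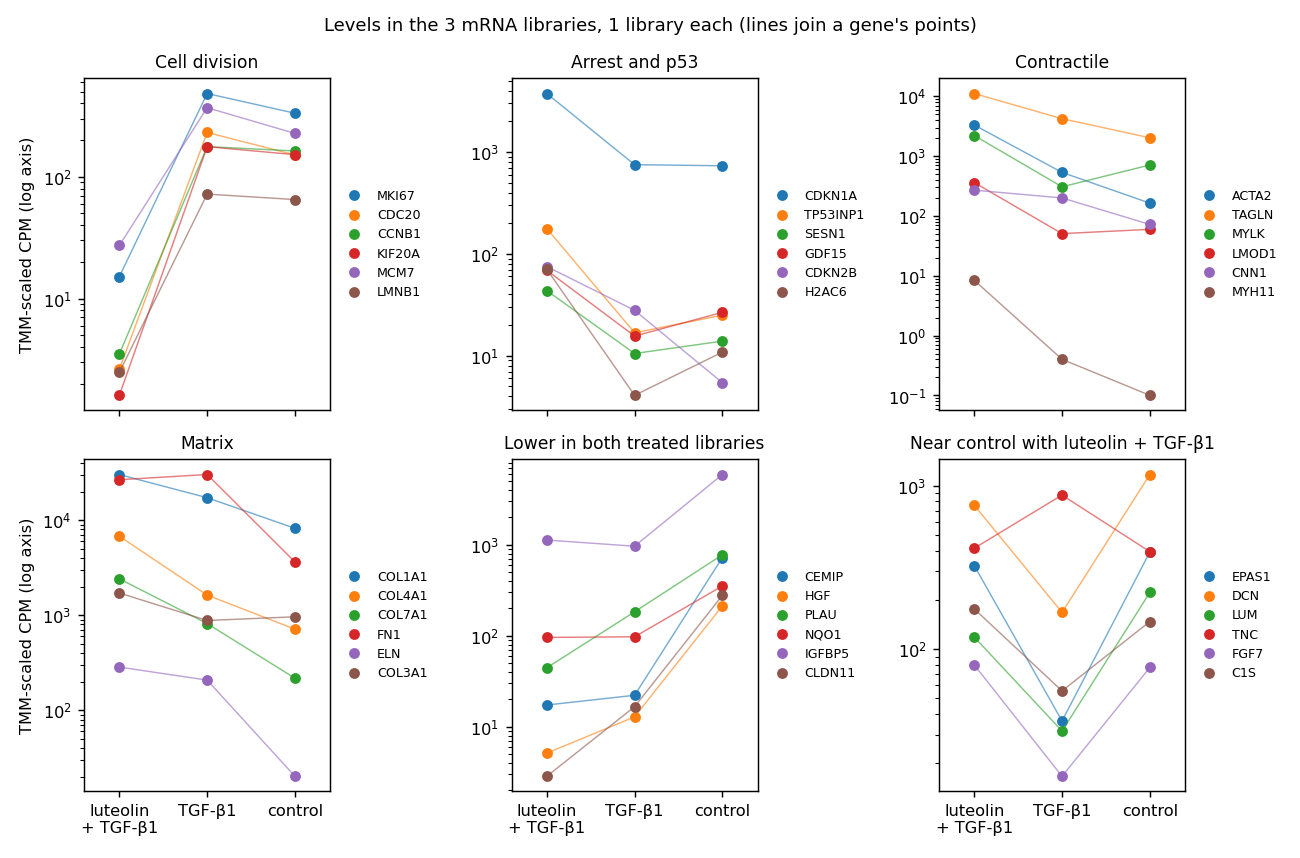
Points give the scaled CPM of single genes (y axis, log axis) in the luteolin + TGF-β1, TGF-β1 and control libraries (x axis), 1 library each, with lines only to join the points of a gene. The 6 division genes are low only in the luteolin + TGF-β1 library, ACTA2 and COL4A1 are highest there and lowest in control, CEMIP and HGF are low in both treated libraries, and EPAS1, LUM and FGF7 are lowest in the TGF-β1 library.

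Collagen genes were higher in part. Of 29 chains 25 were measured, 12 were higher and 2 lower (median 0.83), against 6 higher and 4 lower in TGF-β1 cells (median -0.04). Under total counts 9 were higher and 6 lower. The main chains of type I collagen, COL1A1 and COL1A2, had log2 ratios of 1.88 and 1.86. COL1A1 was the most abundant gene by counts in luteolin + TGF-β1 cells, with 412414 counts there, 257174 in TGF-β1 cells and 163374 in control cells. The basement membrane chains COL4A1, with 6776, 1629.6 and 714 CPM in luteolin + TGF-β1, TGF-β1 and control cells (log2 ratio 3.25, interval 3.22 to 3.27), and COL4A2 (2.50) lay further from control. COL7A1, the anchoring fibril collagen, had 33040 counts in luteolin + TGF-β1 cells, 12212 in TGF-β1 cells and 4335 in control cells (log2 ratio 3.47, interval 3.43 to 3.52), and COL5A1 (2.79) and COL11A1 (2.52), which nucleate fibrils, were higher too. COL10A1, known from hypertrophic cartilage, had 110 counts in luteolin + TGF-β1 cells, 22 in TGF-β1 cells and 3 in control cells (log2 ratio 5.74, interval 4.15 to 8.04). COL3A1, the second major fibrillar collagen of lung, had 23441 counts in luteolin + TGF-β1 cells, 13154 in TGF-β1 cells and 19178 in control cells. It was not called (0.83), though it passed 2-fold with the upper quartile (1.01). COL6A3 (0.58) and COL12A1 (0.68) were not called either. COL13A1 (-1.36) and COL24A1 (-2.63) were lower.

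Enzymes that modify and cross-link collagen had 12 of 24 members higher and 3 lower (median 0.80), compared with 1 higher and 2 lower in TGF-β1 cells, and total counts gave 8 higher and 6 lower. LOX, which starts cross-links in collagen and elastin, had 20850 counts in luteolin + TGF-β1 cells, 10697 in TGF-β1 cells and 7158 in control cells (log2 ratio 2.08, interval 2.04 to 2.12). LOXL2 (1.98), the prolyl hydroxylase subunits P4HA2 (1.95) and P4HA3 (3.23) and the lysyl hydroxylase PLOD2 (1.61) were higher, and LOXL1 (-1.15, not with the upper quartile) and P3H2 (-1.53) were lower. The elastic fibre list had 8 of 15 higher and 2 lower. ELN, the gene of elastin, had 3899 counts in luteolin + TGF-β1 cells, 3106 in TGF-β1 cells and 403 in control cells (log2 ratio 3.82, interval 3.67 to 3.97), so both treated libraries stood near each other and far above control. MFAP4 (2.64) and FBLN5 (2.34), which help assemble elastic fibres, were higher, and FBN2, the fibrillin of developing tissue, was lower (-1.75).

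Of 19 measured glycoproteins and proteoglycans 11 were higher and 2 lower (median 1.08), against 6 and 4 in TGF-β1 cells. Under total counts 7 were higher and 3 lower. Fibronectin, encoded by FN1, is the scaffold on which collagen is laid down. It had 364096 counts in luteolin + TGF-β1 cells, 450807 in TGF-β1 cells and 72321 in control cells and was 7.33-fold higher than control in luteolin + TGF-β1 cells (log2 ratio 2.87, interval 2.86 to 2.88). THBS2 (3.39), BGN (2.45), SPARC (2.18) and THBS1 (1.72), matricellular proteins and a small proteoglycan, were higher. DCN, LUM and TNC differed from control by more than 2-fold in TGF-β1 cells but lay within 2-fold of it in luteolin + TGF-β1 cells. DCN, a small proteoglycan that binds collagen and TGF-β, had 759.6, 168 and 1169.9 CPM in luteolin + TGF-β1, TGF-β1 and control cells, with log2 ratios to control of -0.62 in luteolin + TGF-β1 cells and -2.80 in TGF-β1 cells. LUM, its relative, lay at -0.91 and -2.82 in the same order, but the total-count shift of -0.34 takes the first value past 2-fold. TNC, tenascin-C, was highest in TGF-β1 cells, with 414, 876 and 395 CPM in luteolin + TGF-β1, TGF-β1 and control cells, and its log2 ratio to control was 0.07 with both agents and 1.15 with TGF-β1 alone. POSTN, periostin, had 674 counts in luteolin + TGF-β1 cells, 1089 in TGF-β1 cells and 769 in control cells (0.35). CCN3 (-3.21) and CCN4 (-3.08), matricellular members of the CCN family, were lower.

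Target and feedback genes of TGF-β and SMAD2/3 had 12 of 23 measured members higher and 2 lower (median 1.14), beside 9 higher and 0 lower in TGF-β1 cells with a median of 0.65. SMAD7, the feedback inhibitor of the receptor, had 1065 counts in luteolin + TGF-β1 cells, 608 in TGF-β1 cells and 136 in control cells (log2 ratio 3.51, interval 3.25 to 3.78). PMEPA1, another feedback inhibitor, had 1908 counts in luteolin + TGF-β1 cells, 620 in TGF-β1 cells and 183 in control cells (log2 ratio 3.92, interval 3.70 to 4.15). NOX4, the oxidase of activated fibroblasts, had 431 counts in luteolin + TGF-β1 cells, 261 in TGF-β1 cells and 39 in control cells (log2 ratio 4.01, interval 3.53 to 4.52). TGFBI, a secreted adhesion protein, was abundant at 8651, 3997 and 660.1 CPM in luteolin + TGF-β1, TGF-β1 and control cells (3.71). For these 4 genes the luteolin + TGF-β1 library was the highest and control the lowest. CCN2, a matricellular protein gene, was also higher (1.44). On the receptor side, TGFBR2 was lower (-1.39), TGFBR1 was not called (0.92), and SMURF2, which ubiquitinates the receptor, was lower (-1.16), though not with the upper quartile. In the BMP branch ID3 (2.30), ID1 (1.67), NOG (1.53) and GREM1 (1.34) were higher, and BMP4 (-2.31) and BMP2 (-1.56) lower, in 4 higher and 3 lower of 13. GREM1 lost its call under total counts.

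Proteases and their inhibitors went both ways, with 11 of 25 higher and 8 lower. TGF-β1 cells had 9 of 25 higher and 4 lower. ADAM19, a membrane metalloprotease that sheds growth factors, had 39270 counts in luteolin + TGF-β1 cells, 14577 in TGF-β1 cells and 1930 in control cells (log2 ratio 4.89, interval 4.82 to 4.95), and the related ADAM12 had a log2 ratio of 3.31. SERPINE2, protease nexin-1, an inhibitor of thrombin and plasminogen activators, had 18042 counts in luteolin + TGF-β1 cells, 3555 in TGF-β1 cells and 1010 in control cells (log2 ratio 4.70, interval 4.61 to 4.79). MMP2 (2.65) and its activator MMP14 (1.76) were higher, and MMP1 lay at 0.11 and was not called. PLAU, the urokinase gene, had 608 counts in luteolin + TGF-β1 cells, 2738 in TGF-β1 cells and 15460 in control cells and lay 17.5-fold below control (log2 ratio -4.13, interval -4.25 to -4.01), and PLAT, the tissue activator, was lower as well (-1.85). ADAMTS1, a protease of versican, was lower (-3.88).

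Integrin subunits, the receptors of matrix, also went both ways, with 7 of 15 higher and 4 lower. The collagen-binding subunits ITGA11 (3.12) and ITGA1 (2.50), the fibronectin and vitronectin receptor subunits ITGA5 (1.74), ITGAV (1.58), ITGB3 (3.30) and ITGB5 (1.66), and ITGB1 (1.40) were higher. The laminin-binding ITGA6 had 181 counts in luteolin + TGF-β1 cells, 2104 in TGF-β1 cells and 2272 in control cells (log2 ratio -3.11, interval -3.34 to -2.89), and ITGA4, ITGA8 and ITGB8 were lower, at -1.31, -1.82 and -2.89. Of 10 measured hyaluronan genes 3 were higher and 3 lower (5 lower under total counts). CEMIP2 was among the higher ones (1.81), at 3419 counts in luteolin + TGF-β1 cells, 3016 in TGF-β1 cells and 1419 in control cells. CEMIP, which breaks hyaluronan down, had 237 counts in luteolin + TGF-β1 cells, 331 in TGF-β1 cells and 14412 in control cells, 41.8-fold lower than control (log2 ratio -5.38, interval -5.58 to -5.20), with both treated libraries far below it. The hyaluronan receptor CD44 was lower (-1.34), and the synthase HAS2 had 876 counts in luteolin + TGF-β1 cells, 3732 in TGF-β1 cells and 2074 in control cells and was not called (-0.70).

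Genes of lung fibroblast identity and growth factor supply had 4 higher and 5 lower members of 14. HGF, which fibroblasts supply to epithelium, had 70 counts in luteolin + TGF-β1 cells, 192 in TGF-β1 cells and 4239 in control cells, 41.6-fold lower than control (log2 ratio -5.38, interval -5.74 to -5.04). PPARG, the factor of lipid-storing fibroblasts, was lower on 20 counts in luteolin + TGF-β1 cells, 72 in TGF-β1 cells and 519 in control cells (log2 ratio -4.16, interval -4.88 to -3.51). TCF21, a mesenchymal transcription factor, was lower (-2.37). FGF7, a growth factor for epithelial cells, had 1096 counts in luteolin + TGF-β1 cells, 249 in TGF-β1 cells and 1538 in control cells, log2 ratios to control of 0.05 in luteolin + TGF-β1 cells and -2.21 in TGF-β1 cells. EPAS1, the gene of the hypoxia-inducible factor HIF-2α, was likewise lowest in TGF-β1 cells, with 4437 counts in luteolin + TGF-β1 cells, 543 in TGF-β1 cells and 7816 in control cells (log2 ratio to control -0.28 with both agents and -3.43 with TGF-β1 alone). Of the complement genes, 1 of 11 was higher and 1 lower in luteolin + TGF-β1 cells (median 0.26), where TGF-β1 cells had 0 higher and 6 lower (median -1.24). C1S had 2411 counts in luteolin + TGF-β1 cells, 829 in TGF-β1 cells and 2937 in control cells, and C4A, the member called higher, rests on 18 counts against 5 and has a near-identical copy, C4B, so that its count is uncertain.

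Cytokine and chemokine genes leaned lower, 9 of 18 against 3 higher. TGF-β1 cells had 7 of 18 lower and 3 higher. CCL2, the monocyte attractant, had 0 counts in luteolin + TGF-β1 cells, 73 in TGF-β1 cells and 514 in control cells, which puts it 118-fold or more below control if the 0 is read as 3 counts, the floor. VCAM1 had 1, 0 and 127 counts in the same order (log2 ratio -6.45, interval -11.76 to -3.94), and ICAM1 was lower (-2.94), both adhesion molecules for leukocytes. PTX3, a soluble pattern-recognition protein, had 65 counts in luteolin + TGF-β1 cells, 386 in TGF-β1 cells and 6437 in control cells (log2 ratio -6.09, interval -6.46 to -5.74). IL11, a cytokine made by myofibroblasts, was higher with 4611 counts in luteolin + TGF-β1 cells, 4559 in TGF-β1 cells and 1480 in control cells (2.18), as was PTGS2, the inducible cyclo-oxygenase, with 142 counts in luteolin + TGF-β1 cells, 183 in TGF-β1 cells and 20 in control cells (log2 ratio 3.37, interval 2.69 to 4.12). Of 24 interferon and antigen presentation genes 10 were lower and 0 higher (median -0.73). TGF-β1 cells had 6 of 24 lower and 0 higher, with a median of -0.69. Those lower included IFIT1 (-3.94), IFIT3 (-3.95), OAS3 (-3.70) and IRF1 (-2.03), while B2M (0.03) was not called.

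NRF2 targets, the antioxidant enzymes, had 9 of 23 lower and 0 higher (median -0.57), and TGF-β1 cells had 6 lower and 0 higher. With the upper quartile 5 were lower. NQO1, a quinone reductase, had 95.9, 97.5 and 353 CPM in luteolin + TGF-β1, TGF-β1 and control cells (log2 ratio -1.88, interval -1.96 to -1.79), GSR lay at -1.73 and GCLM at -1.36, and HMOX1 (-0.40) was not called. Of the 9 lower calls 5 held under every scaling. The aryl hydrocarbon receptor list, which holds the receptor gene AHR and its partner ARNT beside target genes, had 5 of 7 lower and 1 higher. In TGF-β1 cells 4 of 7 were lower and 0 higher. AHR itself was among the lower ones (-1.79), and ARNT was not called (0.11). CYP1B1 had 2 counts in luteolin + TGF-β1 cells, 1 in TGF-β1 cells and 89 in control cells (log2 ratio -4.93, interval -8.00 to -3.04), the repressor gene AHRR was lower (-2.16), and CYP1A1 stayed below 1 CPM. SLC7A5, the member that was higher (1.97), is an amino acid transporter that also belongs to the integrated stress response.

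Hypoxia and glycolysis genes had 15 of 33 higher and 1 lower (median 0.82), beside 3 higher and 1 lower in TGF-β1 cells, and 8 of the 15 held under every scaling. VEGFA, the vascular growth factor, had 8525 counts in luteolin + TGF-β1 cells, 2393 in TGF-β1 cells and 2050 in control cells (log2 ratio 2.60, interval 2.53 to 2.67), and ANGPTL4 (3.64), CA9 (2.61) and PFKFB4 (2.26) were higher. GAPDH (0.42), LDHA (0.48) and HK2 (-0.50) were not called. The integrated stress response with amino acid synthesis had 10 of 25 higher and 0 lower, led by ASNS (2.61), VLDLR (2.50) and NUPR1 (2.14), while DDIT3 (-0.20) was not called. Under every scaling 7 of these 10 stayed higher, and total counts gave 7 higher and 1 lower. The unfolded protein response of the endoplasmic reticulum had 3 of 21 higher, a share near the 12.4% over all genes, and 0 lower. Under total counts 1 was higher and 2 lower. Its chaperone gene HSPA5 lay at -0.77. Cholesterol and fatty acid synthesis had 12 of 28 higher and 0 lower, with SCD, the desaturase of stearate, at 1354, 309 and 139 CPM in luteolin + TGF-β1, TGF-β1 and control cells (log2 ratio 3.29, interval 3.23 to 3.35). Only 4 of those 12 held under every scaling, and lysosome and autophagy genes had 8 of 28 higher, of which 3 did.

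Cytosolic chaperones leaned the other way, 8 of 19 lower and 1 higher, with 13 lower and 0 higher under total counts and 6 lower with the upper quartile. HSP90AA1 had 10059 counts in luteolin + TGF-β1 cells, 27901 in TGF-β1 cells and 49949 in control cells (log2 ratio -1.77, interval -1.80 to -1.74), and HSPH1 lay at -1.46. HSPA1A and HSPA1B were both lower, at -1.17 and -1.27, and as near-identical genes they can exchange reads. HSPA1A lost its call with the upper quartile. Splicing factors had 7 of 26 lower and 3 higher, beside 17.1% lower and 12.4% higher over all genes. Of the 3 higher, 1 stayed higher under total counts. HNRNPA1 had 2904 counts in luteolin + TGF-β1 cells, 14792 in TGF-β1 cells and 19867 in control cells (log2 ratio -2.23, interval -2.29 to -2.18) and SRSF1 lay at -2.14, whereas the kinase CLK1, which phosphorylates such factors, was higher at 1.39. Ribosomal proteins and nuclear-encoded subunits of oxidative phosphorylation had 0 of 28 and 0 of 29 called, with medians of -0.10 and -0.19. Ribosome biogenesis had 5 of 30 lower, a share near the 17.1% over all genes, and 0 higher. Under total counts 17 of 30 were lower. Of 29 immediate-early and ERK feedback genes 9 were lower, among them the feedback genes DUSP6 (-2.26) and SPRY2 (-1.71) and the immediate-early EGR1 (-2.31). Another 4 were higher. EGR2 was one of them, at 230 counts in luteolin + TGF-β1 cells, 132 in TGF-β1 cells and 3 in control cells (log2 ratio 6.80, interval 5.24 to 9.09). DUSP1 was also higher, at 6269, 1343 and 2511 counts in the same order (log2 ratio 1.86, interval 1.79 to 1.93).

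Outside these lists, the gene furthest above control by the near bound of its interval was KIF26B, an unconventional kinesin linked to non-canonical Wnt signalling, on chromosome 1 from 245154985 to 245709432. It had 891 counts in luteolin + TGF-β1 cells, 158 in TGF-β1 cells and 11 in control cells, 118-fold higher than control (log2 ratio 6.88, interval 6.03 to 7.89). AMIGO2, a cell adhesion protein, had 13595 counts in luteolin + TGF-β1 cells, 5510 in TGF-β1 cells and 583 in control cells (log2 ratio 5.08, interval 4.97 to 5.21). The kinase NUAK1 (4.82), the potassium channel KCNH1 (5.78), the focal adhesion protein TNS1 (3.88) and the Wnt regulator DACT1 (4.77) were also among the 20 furthest. NXPH3, a neurexophilin, had 336 counts in luteolin + TGF-β1 cells, 21 in TGF-β1 cells and 12 in control cells (log2 ratio 5.35, interval 4.52 to 6.32), so that the library with both agents stood apart from both others. OR52K3P, an olfactory receptor pseudogene, had 111 counts in luteolin + TGF-β1 cells and 0 in the other libraries, at least 53.8-fold higher than control against a floor of 3 counts.

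On the lower side, CLDN11, a tight-junction protein, had 39 counts in luteolin + TGF-β1 cells, 248 in TGF-β1 cells and 5535 in control cells (log2 ratio -6.61, interval -7.10 to -6.15). SLC7A14 had 2, 3 and 535 counts in luteolin + TGF-β1, TGF-β1 and control cells (log2 ratio -7.52, interval -10.57 to -5.66). CRYBG1 had 1, 126 and 433 counts in that order (log2 ratio -8.22, interval -13.52 to -5.73), a low level in which only the bound nearest equality is informative. SEMA3A, a secreted guidance cue, had 33 counts in luteolin + TGF-β1 cells, 1066 in TGF-β1 cells and 3042 in control cells (log2 ratio -5.99, interval -6.53 to -5.49), and GABRA4 had 0, 4 and 158 counts in luteolin + TGF-β1, TGF-β1 and control cells, at least 36.2-fold lower than control. IGFBP5, which binds insulin-like growth factors, is an abundant gene and was lower, at 1127, 965 and 5922 CPM in luteolin + TGF-β1, TGF-β1 and control cells (log2 ratio -2.39, interval -2.42 to -2.37).

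Gene types differed in their share of calls. Of 11906 protein-coding genes 9.73% were higher and 17.8% lower, whereas of 544 long non-coding RNAs 34.0% were higher and 12.9% lower, and of 1048 IDs with no RefSeq match 31.5% and 13.0%. The difference was present at like abundance: between 10 and 30 CPM 23.5% of 68 long non-coding RNAs were higher, against 5.63% of 3288 protein-coding genes. The clearest example, SLFNL1-AS1, had 430 counts in luteolin + TGF-β1 cells, 84 in TGF-β1 cells and 12 in control cells (log2 ratio 5.70, interval 4.88 to 6.67). It is named as an antisense RNA, and since the strand setting of the counting is not given, its reads cannot be told apart from those of its partner. In TGF-β1 cells against control, long non-coding RNAs between 10 and 30 CPM were higher in 4.41% and protein-coding genes in 1.61%. Mitochondrially encoded transcripts took 5.12% of counts in luteolin + TGF-β1 cells, 2.97% in TGF-β1 cells and 3.75% in control cells. Of their 13 protein-coding genes 1 was higher (ND3, 1.04) and 0 lower, with a median of 0.64, and the ribosomal RNA RNR2 was higher (1.74). Whether the mitochondrial share or the state of the RNA bears on the non-coding calls was not tested.

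**Figure D5:**
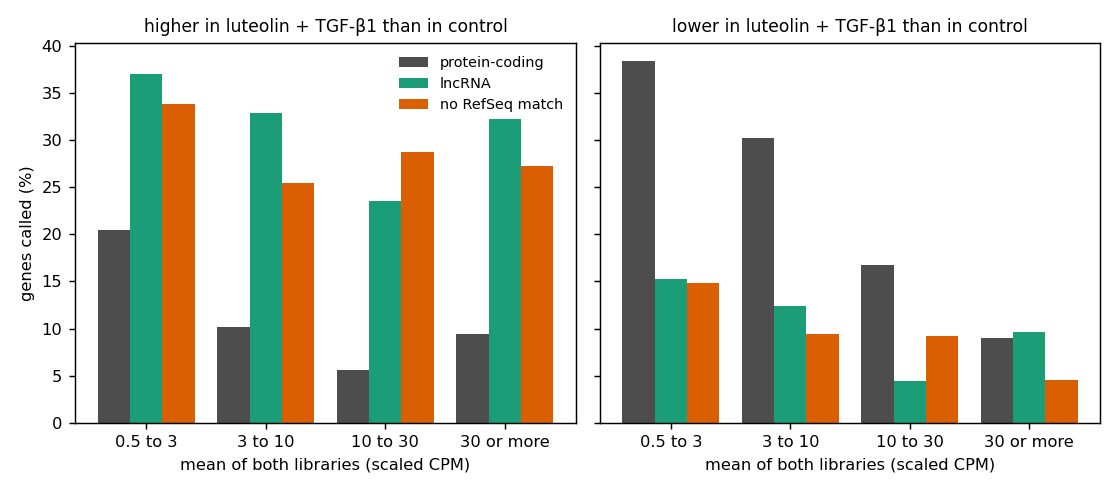
Bars give the percentage of genes called (y axis, starting at 0) higher (left panel) and lower (right panel) in luteolin + TGF-β1 than in control cells, for protein-coding genes, long non-coding RNAs (lncRNA) and IDs with no RefSeq match, in 4 ranges of the mean of both libraries (x axis, scaled CPM). In every range a larger share of the non-coding and unmatched IDs than of the protein-coding genes was higher, for example 23.5% and 28.7% against 5.63% between 10 and 30 CPM.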

How the data were processed

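Poly(A)-selected mRNA of MRC5 cells was prepared from TRIzol total RNA with a stranded Illumina kit, per the labels' protocols, in 3 groups of 1 library. The authors deposited whole-number counts per gene, per the file headers, and these were used without change. The authors' deposited TPM columns served only to derive relative gene length. Per the submitters' processing notes, the build was hg38 and the tools were HISAT2 2.1.0, fastp 0.20.0, edgeR 3.36.0 and featureCounts 2.0.1. The sources used here give neither the annotation release nor the strand setting of the counting. Overlapping and antisense genes therefore cannot be told apart, and near-identical copies may share reads.

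Counts were divided by the library total times its TMM factor over the 3 mRNA libraries (edgeR 4.0.16: 0.879 for luteolin + TGF-β1, 1.02 for TGF-β1 and 1.11 for control). Genes with at least 1 CPM in either library were kept. Each ratio has an exact 95% Clopper-Pearson interval conditional on the sum of both counts (SciPy 1.17.1), and a call needs a ratio of 2-fold or more and an interval that excludes equality. A count of 0 was set against a floor of 3 counts, which is 0.219, 0.201 and 0.151 CPM in luteolin + TGF-β1, TGF-β1 and control. Intervals and floors cover counting error only. The intervals also treat each read as a separate molecule, which cannot be checked without molecular identifiers, so they may be too narrow. With 1 library per group no test was possible and no p-value is given. The calculation of the intervals was checked on simulated data.

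The table has 60623 IDs, of which 36185 matched RefSeq by gene ID. Positions and promoter windows (35116 windows of 27305 genes) are RefSeq's on GRCh38.p14, the assembly of hg38. The comparison and its 47 gene lists were chosen with earlier results of these data known. Genes named are the 20 called genes per direction whose interval bound lies furthest from equality, the 4 furthest called members per list and direction, the 10 most abundant genes per library, a set of marker genes and the members of each list closest to equality. Other list members named beside them, the mitochondrial genes and the split by gene type were chosen after their values were seen. Alternatives tried were 4 other scalings, other filters on low counts, other fold limits and a 99% interval. Some list members are not reported here by name. The miRNA libraries of the series are not used here.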

Additional observations from a re-analysis of the deposited data

How the results depend on the processing

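The number of higher genes was 1725 and moved by more than 1.5 times under total counts (1077) and with a 5 CPM filter (1049), and both numbers moved with the fold limit: 2818 higher and 3639 lower at 1.5-fold, 592 and 1040 at 4-fold. They were 2207 and 1974 with the upper quartile, 1828 and 2249 with relative log expression, 1668 and 2477 with TMM over 2 libraries, 2131 and 2621 without a filter, and 1655 and 2293 with a 99% interval. The 1077 higher genes under total counts were all among the 1725, as were all 2368 lower genes among its 3528. Of 256 called genes chosen by the naming rule, 241 kept their call under total counts, 249 with the upper quartile and 254 under each of the other 2 scalings, and 0 changed direction. List medians near 0 are the unstable ones: 8 changed sign under total counts, 1 (ribosomal proteins) with the upper quartile and 3 with the 5 CPM filter. No paired analysis was possible because each group has 1 library. Depth limits genes under about 3 counts in a library, and 74 calls rest on a library with 0 counts.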

Other observations

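The gene groups not described above follow. Numbers in parentheses are log2 ratios of luteolin + TGF-β1 over control. Over all measured genes 12.4% were higher and 17.1% lower, and some of the small counts here lie near those shares. Wnt genes had 4 of 23 members higher and 6 lower: the receptor gene FZD8 (2.94) and the ligand genes WNT9A (2.73) and WNT5A (1.54) were higher, and LEF1 (-2.35) and the antagonist SFRP1, with 6722 counts in luteolin + TGF-β1 cells, 4783 in TGF-β1 cells and 27576 in control cells, were lower (-1.50). FOXO and insulin signalling genes had 5 of 17 higher, among them SGK1 (1.90) and PIK3IP1 (1.79), and 2 lower, CITED2 (-1.61) and DEPP1 (-2.99), and 3 of the 5 held under every scaling. Notch genes had 1 of 10 higher (3 with the upper quartile), HES1 (1.36, on 30 counts in luteolin + TGF-β1 cells and 17 in control cells), and 1 lower, LFNG (-3.50). KLF and circadian factors had 4 of 24 higher and 0 lower, a split that turned to 2 higher and 4 lower under total counts and was 7 higher with the upper quartile, with BHLHE40, a repressor of the clock, at 3324 counts in luteolin + TGF-β1 cells, 2478 in TGF-β1 cells and 519 in control cells (3.22).

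Metallothionein and zinc genes had 1 of 6 lower, MT1E (-1.59), and 2 under total counts. MT2A was highest in TGF-β1 cells, with 2989 counts in luteolin + TGF-β1 cells, 11791 in TGF-β1 cells and 6944 in control cells, and was not called (-0.67). Lamins and intermediate filaments had 7 of 13 lower and 1 higher: NES, the gene of nestin, had 1982 counts in luteolin + TGF-β1 cells, 7496 in TGF-β1 cells and 7930 in control cells (-1.46), the synemin gene SYNM was higher (1.48) and VIM was not called (-0.18). TEK, the one endothelial marker that was measured, was lower with 40 counts in luteolin + TGF-β1 cells, 501 in TGF-β1 cells and 714 in control cells (-3.62).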
